A study of Vitis vinifera with 2 samples.

Results

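High-CHH windows are 1 kb windows of the grapevine genome that lay inside methylated blocks and carried a high level of methylation in the CHH context, where H is any base except G. Windows were laid end to end along the 19 chromosomes, and a window qualified when at least 8 CG, 8 CHG and 40 CHH cytosines in it were listed in both libraries. The windows were chosen on their pooled level, which is the methylated reads of both libraries over all reads of both libraries. A window was a member when its pooled level was at least 10% in CHH, 50% in CG and 20% in CHG, provided that both adjacent windows also qualified and had at least 20% CHG. Of 265670 qualifying windows, 1025 (0.386%) met the rule. They made up 1.72% of the 59540 windows that met it apart from the CHH limit, and the other 58515 of these are called low-CHH windows inside blocks.

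Whole-genome bisulfite sequencing had been done on terminal buds of the diploid grapevine 'Jingyanjing' (2X) and of the autotetraploid obtained from it with colchicine (4X), collected shortly before the 4X buds were shed. Each line gave 1 library from buds pooled over several vines, so there were no replicates, and every test here compared 2 libraries and not 2 ploidy levels. Colchicine had been given to tissue culture plantlets of 2X to obtain 4X, so ploidy cannot be told apart from that treatment or from the history of the line. Bisulfite turns unmethylated cytosines into bases read as thymine, and the level of a window is the share of reads that still show a cytosine. Incomplete conversion would also leave a cytosine, and the conversion rate is not given in the sources used here. Intervals and p-values cover counting error only, since neighbouring cytosines share reads and duplicate reads are not independent molecules.

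Plants methylate cytosines in all 3 contexts, with a different machinery for each. In Arabidopsis, CG methylation is copied by MET1 after replication and CHG methylation by CMT3, which binds chromatin marked on histone H3 lysine 9. CHH sites have no mirrored cytosine on the other strand, so their methylation is set anew, by CMT2 inside large silent transposons and by the RNA-directed pathway with DRM2 at short transposons and at transposon ends. No genome sequence of the build of the files was used here, so genes, transposons and sequences at these windows are not described.

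The members spread widely in CHH level, and they varied in CHG as well. Their pooled level had quartiles of 10.6% and 19.7% in CHH, 69.7% and 82.1% in CHG, and 84.1% and 91.6% in CG. Their CHH level had a median of 12.2% in 2X and 12.3% in 4X, and 95% of the members lay below 57.6% in 2X and 58.01% in 4X. Their median CG level was 88.6% in 2X and 88.8% in 4X, and their median CHG level was 76.4% and 76.3%. Low-CHH windows inside blocks had median CG levels of 88.6% and 88.7%, median CHG levels of 75% and 75.2%, and median CHH levels of 4.68% and 4.64%. In CG and CHG the medians of members and low-CHH windows thus lay close together, and the CHH limit alone separated the sets by rule. Over the 1025 members the pooled CHH level and the pooled CHG level had a Pearson's r of -0.0492, and over the 58515 low-CHH windows it was 0.379. These correlations are across windows of the same 2 libraries, and they are descriptions without a test.

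Most members stood just above the limit. There were 670 members (65.4%) between 10% and 15%, 195 (19.02%) between 15% and 30%, and 160 (15.6%) at 30% or more. These bands were set after the values had been seen. The 5 members just inside the limit had pooled levels of 10% to 10.02%, and the 5 windows just outside had 9.97% to 9.99%. One just inside, on chromosome 3 from 11973001 to 11974000 in the build of the files, had a CHH level of 9.21% in 2X and 10.9% in 4X, and one just outside, on chromosome 5 from 24620001 to 24621000, had 9.06% and 11.1%. Of all members, 720 reached 10% in both libraries, 142 in 2X only and 163 in 4X only.

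The member nearest the median lay on chromosome 18 from 2577001 to 2578000. It held 69 CHH cytosines, and its CHH level was 9.67% in 2X and 14.3% in 4X, read on average 7.80 and 7.72 times. In tiles of 100 bp its levels ran from 0% to 29.0% in 2X and from 1.11% to 41.7% in 4X, with no stretch of high methylation in either library. The tile of 41.7% held 2 CHH cytosines.

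The 3 highest members among those with at least 10 reads per CHH cytosine in both libraries were of another kind. On chromosome 15 from 3237001 to 3238000, 155 CHH cytosines had a level of 94.2% in 2X and 92.8% in 4X, with 36.8 and 32.6 reads per cytosine. Its first 100 bp had 2.90% and 2.63%, the next 100 bp had 65.2% and 45.5%, and the tiles from 301 bp onward had 93.6% or more in 2X and 92.2% or more in 4X. Within 300 bp of the same window the CHH level therefore went from near the low end to near the top of the scale in both libraries. CHG cytosines were listed in its first 100 bp only, where their level was 82.7% in 2X and 90.8% in 4X.

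The member on chromosome 19 from 459001 to 460000 had a CHH level of 88.5% in 2X and 87.9% in 4X, with 71.0 and 57.8 reads per cytosine. Its first 500 bp had 87.1% to 95.6% in 2X and 84.3% to 96.0% in 4X, and its last 300 bp had 0% to 2.31% and 0% to 5.41%. In that last stretch the CHG level was still 65.2% or more in both libraries. The member on chromosome 3 from 19330001 to 19331000 had 88.8% and 88.4%, with 1020 and 1120 reads per cytosine. Its cytosines repeated with a period of 7 bp, and 79.2% of the positions compared at that spacing carried the same context. This window alone held 8.81% of all CHH reads of the members.

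**Figure D1:**
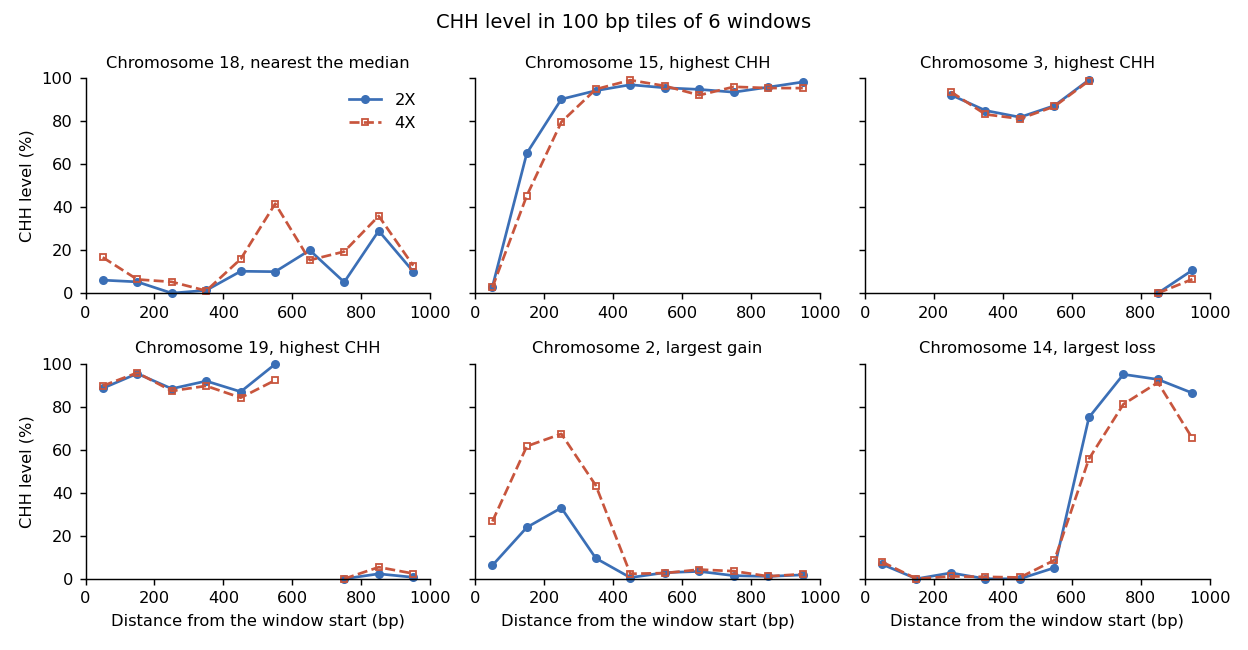
CHH level in percent (y axis) in 100 bp tiles against the distance from the window start in bp (x axis), for 6 members, with 2X as filled blue circles and 4X as open red squares; gaps are tiles without shared CHH cytosines. The 3 highest members step from levels under 11% to levels above 80%, while the member nearest the median stays between 0% and 41.7%.

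These maps led to a view of all members at 100 bp. Of 8959 tiles with at least 4 CHH cytosines, 1118 (12.5%) had a pooled CHH level of 50% or more and are called dense tiles. In low-CHH windows inside blocks 45 of 556416 tiles (0.00809%) were dense, a share that the window limit of 10% holds down by construction. A dense tile was found in 363 members (35.4%): in 54 of the 670 members under 15%, in 149 of the 195 between 15% and 30%, and in all 160 at 30% or more. With a limit of 30% for a tile in place of 50%, 473 members held one. Members contained 21.4% of all dense tiles on the chromosomes, and 44.8% of dense tiles lay in windows that did not qualify. Members and dense tiles were both chosen on the pooled CHH level, so a high share in members follows from the rule.

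High members were mixtures of both extremes. Among members with at least 8 such tiles, the highest tile had a median of 88.2% and the lowest a median of 1.99% in the 134 members at 30% or more. For the 161 members between 15% and 30% these medians were 74.1% and 1.51%. Members under 15% differed, with 21.2% for the highest and 2.73% for the lowest tile over 511 members. Low-CHH windows had 8.97% and 1.42%.

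Single cytosines showed the same division. At CHH cytosines with at least 20 reads over both libraries, a level of 75% or more was reached by 27.2% and 19.8% of the cytosines (75% to 90%, and above) in members at 30% or more. In members under 15% the corresponding shares were 0.912% and 0.838%, and in low-CHH windows 0.131% and 0.120%. In the same order, the share without any methylated read was 16.5%, 38.7% and 59.9%. Members under 15% had more cytosines of intermediate level instead, with 18.0% between 10% and 25% and 10.2% between 25% and 50%, against 9.43% and 3.84% in low-CHH windows.

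Adjacent dense tiles were joined into patches, and 358 patches touched a member. Their median length was 300 bp, 85 consisted of 1 tile and 94 of at least 5 tiles. The longest, on chromosome 15 from 3443701 to 3445400, measured 1700 bp and had a CHH level of 85.2% in 2X and 80.9% in 4X, a CHG level of 88.1% and 83.9% and a CG level of 87.0% and 87.5%. In that patch the 3 contexts were methylated to nearly the same extent.

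At the borders of the 273 patches of at least 2 tiles, the CHH level changed over a short distance. The tiles 200 to 100 bp outside the border had a median CHH level of 4.84% in 2X and 4.66% in 4X. The tile next to the border had 25.7% and 24.1%, the first tile inside 69.7% and 70.1%, and the second 79.3% and 81.3%. Because patches were defined by CHH in 100 bp tiles, a step in CHH at the border follows from the definition. Its width cannot be read more finely than these tiles. The levels of the other contexts were not part of the definition. The CG level was 88.5% and 89.2% in the tiles 200 to 100 bp outside and 89.5% and 90.2% in the first tile inside. The CHG level was 71.4% and 70.4% outside and 79.8% and 77.1% inside, and it reached 83.2% and 83.3% in the second tile. CG methylation thus ran through the border at nearly the same level. CHG was lower just outside than in the first tile inside, but farther out, 600 to 500 bp from the border, it was 77.4% and 78.8%. Over all tiles of the members, the median pooled CHG level was 80% in dense tiles and 79.6% in the others.

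**Figure D2:**
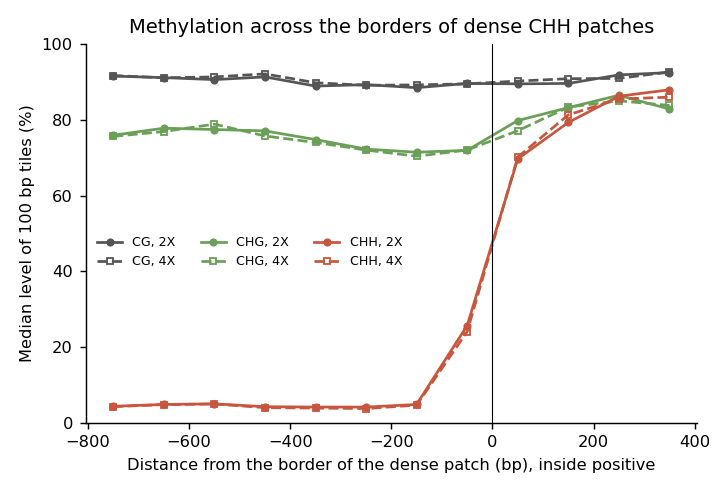
Median methylation level of 100 bp tiles in percent (y axis) against the distance from the border of dense CHH patches in bp, with positive distances inside the patch (x axis), for 273 patches of at least 2 tiles that touched a member; both ends of each patch are folded together, and solid and dashed lines are 2X and 4X. CHH goes from 4.84% to 79.3% in 2X between the second tile outside and the second tile inside, while CG stays between 88.5% and 92.4%.

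Dense tiles had fewer CG and CHG cytosines than their surroundings. They held a mean of 1.21 CHG and 2.01 CG cytosines, against 2.98 and 2.90 in the other tiles of the members and 3.07 and 2.52 in tiles of low-CHH windows, whereas the median number of CHH cytosines was 15 in dense and in other tiles of the members and 23 in tiles of low-CHH windows. No shared CHG cytosine was present in 488 dense tiles (43.6%), against 16.6% of the other tiles. Where CG or CHG cytosines were present, they were methylated. The median CG level of 703 dense tiles was 89.9% in 2X and 90.5% in 4X, and the median CHG level of 630 dense tiles was 81.3% and 80%. Dense tiles were also read more deeply, with median depths of 17.2 reads in 2X and 14.9 in 4X against 11.6 and 10.4 in the other tiles of the members. The part of this depth in their CHH level was not tested. When cytosines above the 99th percentile of depth were left out, 377 members held a dense tile.

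How far methylation at one CHH cytosine went along with that at its neighbours was read across the libraries, with the level of one cytosine in 2X set against the level of another in 4X, both as deviations from their window. Different reads enter the 2 sides, so reads shared between neighbours do not add to the value. In members at 30% or more, Pearson's r was 0.909 for the same cytosine (23302 pairs), 0.796 for cytosines 11 to 20 bp apart and 0.524 at 101 to 200 bp. In members between 15% and 30% the values were 0.844, 0.706 and 0.376. In members under 15% they were 0.718, 0.206 and 0.0649, and in low-CHH windows 0.622, 0.00683 and 0.000410. In low-CHH windows a cytosine thus resembled itself in the other library and not the cytosines next to it, while in high members it resembled cytosines over 100 bp away. These correlations are across cytosine pairs that share windows, and no test was made of them.

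**Figure D3:**
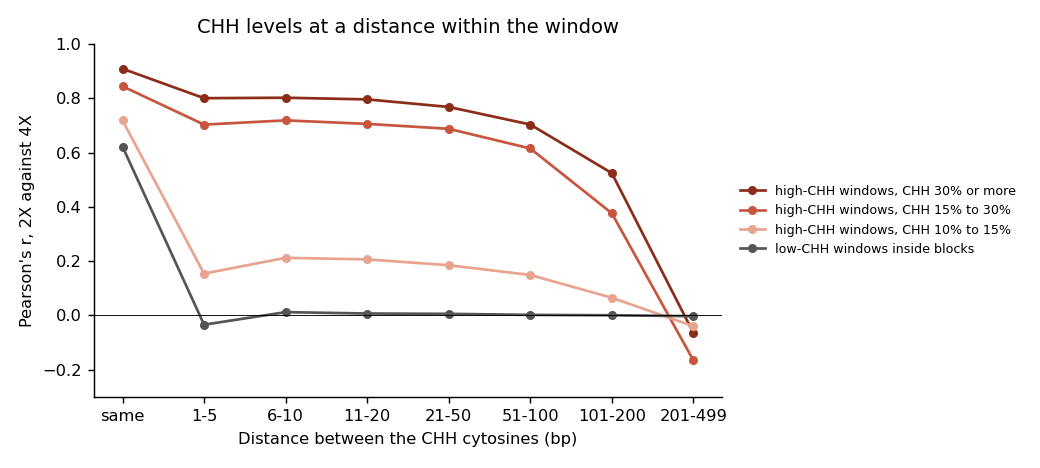
Pearson's r between the CHH level of one cytosine in 2X and of another in 4X, as deviations from the level of their window (y axis), by the distance between the cytosines in bp (x axis, unequal classes), for members in 3 bands of CHH level and for low-CHH windows inside blocks. At 11 to 20 bp, r is 0.796, 0.706 and 0.206 in the 3 bands from high to low, and 0.00683 in low-CHH windows.

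Members were short of cytosines that both files list. The median number of shared CHH cytosines was 139 in members and 219 in low-CHH windows, while the medians of CG were 22 and 21 and of CHG 22 and 26. Members made up 7.02% of the windows inside blocks with under 100 shared CHH cytosines and 0.268% of those with at least 250. For members at 30% or more the corresponding shares were 0.599% and 0.00515%. In windows with fewer cytosines the pooled level is less precise, and its part in this relation was not tested. The median CHH depth of members was 12.6 reads in 2X and 11.2 in 4X, close to the 12.1 and 11.1 of low-CHH windows, and the median of the members at 30% or more was 18.4 and 15.3. A summed CHH depth above the 99th percentile of qualifying windows (52.7 reads) was found in 48 members (4.68%), of which 27 were at 30% or more.

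The surroundings were examined up to 10 kb away, where the rule had not looked beyond the adjacent windows. The median CHH level, taken on both sides together, was 6.57% at 1 kb, 5.19% at 2 kb, 3.91% at 5 kb and 3.16% at 10 kb. Around low-CHH windows it was 4.58%, 4.48%, 3.84% and 3.40%. Near members CHH was thus higher up to 3 kb on both sides and lower at 10 kb, while at 5 kb the sides differed in order. The share of windows with at least 10% CHH was 20.2% at 1 kb and 5.07% at 2 kb from members, against 1.42% and 1.46% from low-CHH windows. The CHG level next to members was 75.1% at 1 kb, against 74.4% next to low-CHH windows. Farther away the order was the other way round, with 73.3% against 73.8% at 2 kb and 60.4% against 65.6% at 10 kb. Windows at block edges passed the same 3 limits but had at least 1 neighbour under 20% CHG, so their low CHG level of 8.86% at 1 kb restates the rule. The CHH level there was 1.83%.

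**Figure D4:**
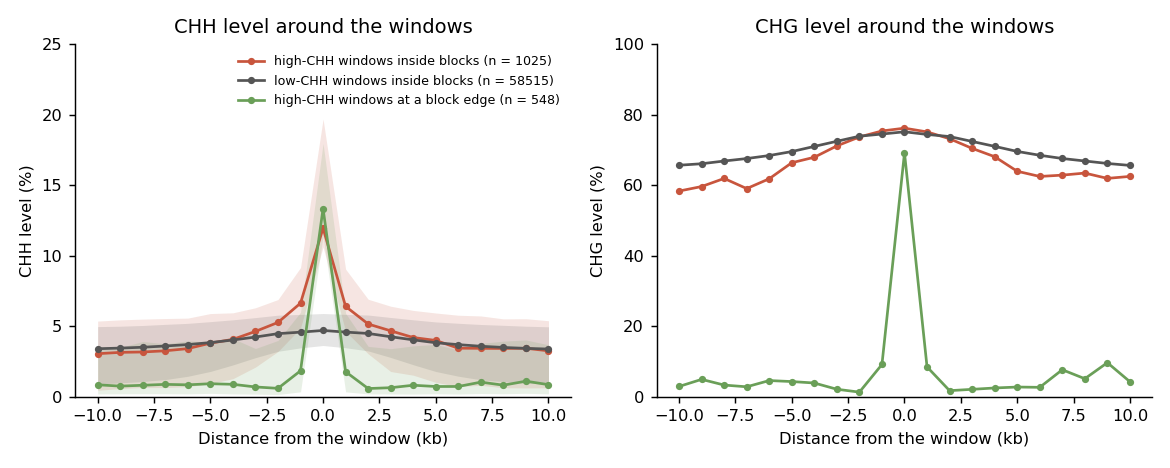
Median CHH level (left) and median CHG level (right) in percent against the distance in kb from members, from low-CHH windows inside blocks and from high-CHH windows at a block edge; shaded bands on the left are the quartiles. CHH around members falls from a median of 11.95% to 6.57% at 1 kb and 5.19% at 2 kb, while CHG stays above 73% within 2 kb.

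Members were a larger share of the windows near block ends than of those in the middle. A block is a run of adjacent qualifying windows with at least 20% CHG, so it also ended where the next window had too few listed cytosines. Around members 2050 windows qualified at 1 kb and 1637 at 2 kb, and 87.4% of the latter had at least 20% CHG. Around low-CHH windows the numbers were 117030 and 95371, with 92.3%. Block ends are thus not all places where CHG fell. The median block around a member was 7 kb long, against 8 kb for low-CHH windows. An end of the block was the next window for 49.7% of the members and for 41.8% of low-CHH windows. Among windows inside blocks, members were 2.04% of those next to an end, 1.48% of those 3 to 4 windows away and 0.738% of those 10 or more away. By block length the share went from 2.39% in blocks of 3 windows to 1.24% in blocks of 21 or more. By the CHG level of the surrounding 100 kb it went from 3.66% below 10% to 1.22% at 50% or more. The share was thus larger in short blocks and, taken separately, in regions of low CHG, although 304 members lay in the most methylated regions. For members at 30% or more it showed no such order by regional CHG, with 0.203% in the lowest class, 0.360% in the next and 0.209% in the highest.

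Along the chromosomes, the share of qualifying windows that were members was 0.562% between 60% and 70% of the length and 0.269% between 10% and 20% of it. As a share of windows inside blocks the order was reversed, with 1.71% and 2.18%. Per chromosome it was highest on chromosome 11, with 58 of 11642 windows (0.498%, 95% Wilson interval 0.386 to 0.643), and lowest on chromosome 10, with 28 of 10521 (0.266%, 0.184 to 0.384). These are the extremes of 19 chromosomes. Most members stood alone: they formed 883 runs of adjacent members, of which 754 had 1 window, 116 had 2 and 13 had 3. The longest runs thus measured 3 kb, and no run was longer. One of the 13, on chromosome 14 from 12375001 to 12378000, had pooled CHH levels between 24.1% and 79.2%.

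The study compared 2X and 4X to learn how methylation differs in the autotetraploid, which sheds its shoot tips, and how this bears on gene expression. Over all CHH reads of the members, 2X had a level of 28.4%, with a 95% Wilson interval from 28.3 to 28.4, and 4X a level of 29.1%, from 29.1 to 29.2. This gave a 4X minus 2X difference of 0.752 points with a half-width of 0.0829. That value rested on a single window. Without the very deep member on chromosome 3 the levels were 23.1% and 22.7%, and the difference was -0.371 points with a half-width of 0.0807. With each member weighted equally the mean difference was 0.0927 points (SD 4.96, n = 1025 windows), the median was 0.159 points, and 537 members were higher and 488 lower in 4X. The weighted CHH level of the members was higher in 4X on 9 chromosomes and lower on 10. No common direction was therefore found in CHH. All qualifying windows had a difference of -0.0517 points and low-CHH windows -0.0192 points.

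In the other contexts the differences were small. The weighted CG level of the members was 87.5% in 2X and 87.8% in 4X, a difference of 0.303 points with a half-width of 0.140, and it was higher in 4X on 15 of 19 chromosomes. The CHG level was 75.7% and 76.0%, a difference of 0.296 points with a half-width of 0.196, and it was higher on 14. Low-CHH windows had 0.155 points in CG and 0.0490 points in CHG. Over all qualifying windows both differences had the other sign, with -0.186 and -0.538 points. Vine-to-vine spread was not measured, so none of these differences can be set against it.

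Single members did differ between the libraries in CHH. The two-sided Fisher exact test of summed reads, with Benjamini-Hochberg adjustment over all 265670 qualifying windows, called 336 members (32.8%) against 12.0% of all qualifying windows. Of the 548 edge windows 226 (41.2%) were called, so a high share was not particular to the members. Higher in 4X were 171 members, with a background of 5.39%, and lower were 165, with a background of 6.62%. A difference of at least 5 points as well was found for 204 members (19.9%), against 0.526% of all qualifying windows. The called differences had a median size of 5.70 points in members and 1.46 points in all qualifying windows. The median pooled CHH level of all qualifying windows was 1.44%, so most of them could not fall by 5 points. Both contrasts thus follow in part from the choice of members by CHH level. Among edge windows, which passed the same CHH limit, 104 (18.98%) were called with at least 5 points, and the median called size was 4.55 points. In CHG 11 members (1.07%) were called against a background of 3.69%, and in CG 15 members (1.46%) against 2.14%. Only 10 members were called in CHH and also in CG or CHG, so 326 of the 336 were called in CHH alone.

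The share called went with the CHH level of the window. It was 20.1% of the members under 15%, 56.9% of those between 15% and 30%, and 56.3% of those at 30% or more, and over low-CHH windows it went from 7.15% under 2% to 12.3% at 8% to 10%. The Fisher test counts every read at every cytosine as independent and has more power at higher levels and depths. The rank sum test of cytosine levels, which ignores depth, called 109 members (10.6%), against 8.39% of qualifying windows, and 19.4% of the members at 30% or more. With at most 1 cytosine per 150 bp, a median of 7 CHH cytosines was left per member and the Fisher test called 0 members and 1 qualifying window. In that thinned test 77 members (7.51%) had an unadjusted p under 0.05, against 1.95% of qualifying windows. The counts of called members therefore depend on the test and on the cytosines that enter it. Thinning also removes most reads, so its 0 calls cannot tell shared reads of neighbouring cytosines from lost power.

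**Figure D5:**
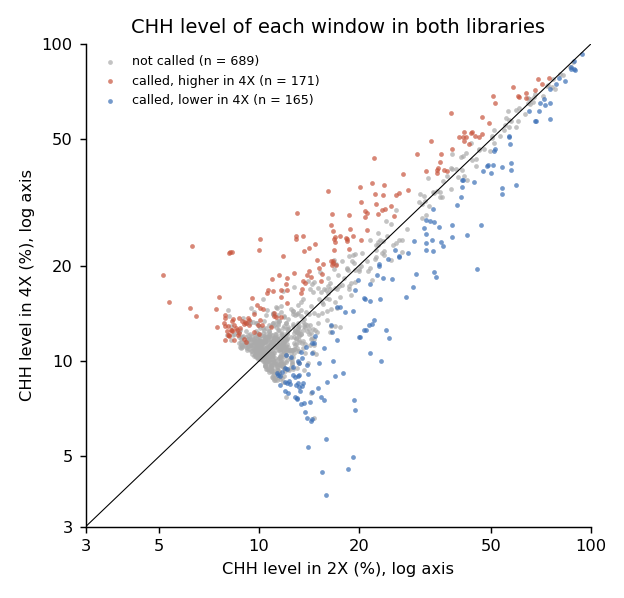
CHH level in 4X against that in 2X for the 1025 members, in percent on log axes, with the line of equal levels; grey points were not called, red points were called higher in 4X (171) and blue points lower (165) by the Fisher exact test. Called members lie on both sides of the line at all levels, and the lower left corner is empty because the pooled level had to reach 10%.

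By the rule for named windows (depth of at least 10 reads in both libraries and not above the 99th percentile), the largest gain lay on chromosome 2 from 18622001 to 18623000. Its CHH level was 6.29% in 2X and 23.1% in 4X over 250 cytosines with 19.7 and 23.9 reads each (Fisher exact test, adjusted p = 4.6e-134). The gain lay in its first 400 bp, where tiles had 6.22%, 24.0%, 33.0% and 9.56% in 2X and 26.7%, 61.7%, 67.5% and 43.4% in 4X. The remaining 600 bp had at most 3.44% and 4.30%. Depths in those first 4 tiles were 22.5, 19.6, 15.1 and 16.3 reads in 2X and 20.1, 36.4, 38.9 and 30.1 in 4X, and their part in the difference was not tested. CHG was 29.0% and 28.5% and CG 86.2% and 85.4%, and neither was called.

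On chromosome 9 from 15900001 to 15901000 the CHH level was 20.2% and 35.4%, with 11.1 and 10.5 reads per cytosine (Fisher exact test, adjusted p = 3.63e-20). Here the patch lay further along in 4X. The tile from 701 bp had 31.1% in 2X and 89.8% in 4X, while the tile from 401 bp had 64.6% and 27.5%, so the libraries differed in both directions within the same window. Depths were 5.95 and 10.8 reads in the tile from 701 bp, and 5.33 and 3.83 in the tile from 401 bp. The other 3 named gains were between 14.0 and 14.4 points, on chromosomes 10, 5 and 16. On chromosome 10 from 11102001 to 11103000 the difference was spread over the last 700 bp, where the tile from 301 bp had 13.7% in 2X and 48.3% in 4X and the densest tile had 86.0% and 96.7%. None of the 5 was called in CHG, and only the member on chromosome 9 was called in CG (90.2% in 2X and 96.5% in 4X, adjusted p = 0.0155 by the Fisher exact test).

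The largest loss lay on chromosome 14 from 7996001 to 7997000, with a CHH level of 59.6% in 2X and 36.0% in 4X over 144 cytosines (Fisher exact test, adjusted p = 1.58e-45). Mean depths were 16.8 and 11.5 reads. Its last 400 bp carried the patch, with 75.1%, 95.2%, 92.9% and 86.5% in 2X and 55.8%, 81.3%, 91.4% and 65.4% in 4X, and the first 600 bp stayed under 9% in both. Depth in that patch also differed, with 8.81, 20.9, 29.6 and 21 reads in 2X and 7.76, 11.3, 12.4 and 7.46 in 4X. Depths in the first 600 bp were 6.47 to 32.9 reads in 2X and 5.16 to 35.9 in 4X. The window level sums reads, so a patch counts for less in it where the patch is read less. The part of this depth difference in the weighted level was not tested. The other 4 named losses were between -20.4 and -17.5 points, on chromosomes 4, 18, 14 and 15. On chromosome 18 from 24197001 to 24198000 the loss of -19.6 points was in the weighted level and not in every tile of the patch. Tile levels in the patch were 72.7% to 86.7% in 2X and 70.9% to 96.7% in 4X. The tile from 701 bp had 72.7% and 96.7%, and the tile from 801 bp 78.1% and 70.9%. Patch depths were lower in 4X, with 20.5 and 6.18 reads in the tile from 901 bp, while the first 100 bp had 56.7 and 65.7. The part of depth in this loss was not tested. None of the 5 was called in CG or CHG.

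Depth and difference were set against each other over all dense tiles of the members. Across 1118 dense tiles the 4X minus 2X difference in CHH and the log2 ratio of depths had a Pearson's r of 0.0335 and a Spearman's rho of 0.0219, given as a description. Each tile was set against its own depths. These values therefore cannot show how uneven depth between a patch and the rest of its window enters the window level. The depth in 4X over that in 2X had a median of 0.907 in the 92 tiles higher in 4X by at least 20 points, 0.867 in the 943 tiles within 20 points, and 0.851 in the 83 tiles lower by at least 20 points. The median size of the difference was 7.91 points in dense tiles and 2.82 points in the other tiles of the members. Dense tiles were higher in 4X in 523 cases and lower in 588.

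The bins of the study gave a further view, which treats cytosines equally. Bins of 100 bp sliding by 25 bp were compared with a rank sum test, adjusted over all 11742789 bins of all sequences. Within members 2523 of 33651 bins (7.50%) were called, against a background of 1.06%, and in low-CHH windows 0.418% were. At least 1 called bin was found in 448 members (43.7%), against 9.55% of all qualifying windows, 5.82% of low-CHH windows and 44.5% of edge windows, and 101 members held called bins in both directions. Of the called bins in members, 1197 were higher and 1326 lower in 4X. By band, 2.63%, 13.8% and 19.3% of bins were called in members under 15%, between 15% and 30%, and at 30% or more. Edge windows had 5.14%. The chi-square approximation of this test is coarse for bins with few cytosines. The test also takes neighbouring cytosines as independent, and overlapping bins were counted separately. At 11 to 20 bp, r between cytosines was 0.796 in members at 30% or more and 0.00683 in low-CHH windows. The part of this likeness in the shares of called bins was not tested.

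How well the windows held up in reads that had not chosen them was examined with the rule applied to one library alone. It gave 1186 windows in 2X, whose median CHH level was 11.8% in 2X and 11.001% in 4X. Of these, 718 (60.5%) reached 10% in 4X and 32 were under 5%. In 4X it gave 1233 windows, with medians of 11.8% in 4X and 10.6% in 2X, of which 715 (57.99%) reached 10% in 2X. Of 168 windows at 30% or more in 2X, 147 (87.5%) were at 30% or more in 4X, and of 162 in 4X, 146 (90.1%) were so in 2X. Tiles were compared within the members, which the reads of both libraries had chosen, so their likeness is a description. Of 1107 tiles of members at 50% or more in 2X, 964 (87.1%) were at 50% or more in 4X and 6 were under 10%, with a median of 75.7% in 4X. Many of the windows chosen in one library thus fell below 10% in the other.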

How the data were processed

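Whole-genome bisulfite sequencing of terminal buds gave 1 library of 2X and 1 of 4X. Per the study's methods, the authors removed reads of low quality, mapped paired-end reads to the Vitis vinifera genome with an aligner spelled Bimark, and listed cytosines with at least 3 reads. The aligner version, genome build, treatment of duplicates and conversion rate were not given in the sources used here. Deposited values were counts of methylated and unmethylated reads per cytosine and the methylation level in percent. The counts were used here, at cytosines listed in both libraries, and summed by context in 1 kb windows of 19 chromosomes.

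Summed counts of each window entered a two-sided Fisher exact test, with Benjamini-Hochberg adjustment over 265670 qualifying windows per context, at an adjusted p of 0.05. The study's rank sum test was run on 100 bp bins, moved in steps of 25 bp, that held at least 2 cytosines. Dense tiles were 100 bp tiles with at least 4 CHH cytosines and 50% CHH. Intervals are 95% Wilson intervals. Windows named were the member nearest the median, the 3 highest with at least 10 reads per CHH cytosine in both libraries, the longest runs, the 5 on each side of the CHH limit, and the 5 called members of largest gain and of largest loss with at least 10 reads and a depth up to the 99th percentile. The members and lists were chosen with earlier results of these data known. Alternatives changed the coverage minimum, depth limit, level summary, window grid, thresholds, neighbour rule and test. Python 3.11.15, numpy 2.4.6, scipy 1.17.1 and pandas 2.3.3 were used.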

Additional observations from a re-analysis of the deposited data

Results flagged for a closer look

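Cytosines of the members listed in one library alone were used in no comparison, and they carried CHH methylation. In 2X alone, 26654 CHH cytosines at a mean depth of 4.53 reads had a level of 11.7158% (95% Wilson interval 11.5 to 11.9), against 28.4% at shared cytosines. In 4X alone, 24254 CHH cytosines at 4.38 reads had 10.4314% (10.2 to 10.6), against 29.1%. Their CG levels were 87.1% and 87.3%, close to the 87.5% and 87.8% of shared cytosines. Members were chosen on CHH at shared cytosines, so a lower CHH level at the other cytosines follows in part from the rule. In low-CHH windows inside blocks the order was reversed, with 4.95% and 4.93% against 4.58% and 4.56% at shared cytosines. Without the deepest member the shared cytosines of the members had 23.1% in 2X and 22.7% in 4X. The part of depth in the CHH difference was not tested.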

How the results depend on the processing

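Of 52 alternatives, 35 were classed as giving the same result. For the level differences this meant the same direction and the same side of the threshold. For counts and for the medians around members it meant a value within a set range of the reported one. An example is the 473 members holding a dense tile at the tile limit of 30%, against 363 as reported. The CHH difference over members, 0.752 points, turned to -0.202 points with at least 5 reads, -0.393 when cytosines above the 99th percentile of depth were left out and -0.371 without the deepest member. With the mean of cytosine levels it was -0.0570 points, within its half-width of 0.0729. It was 0.0870 points with at least 10 reads, within counting error. With equal weights it was 0.0927 points, within a half-width of 0.304 that came from the spread over windows. The CG and CHG differences kept their sign under the 8 alternatives run on them. Members numbered 211 with at least 10 reads, 3491 at a CHH limit of 8%, 355 at 15% and 516 with 2 windows required on each side. The 336 members called in CHH became 196 of 707 with at least 5 reads (27.7%, against 10.7% of qualifying windows), 40 of 211 with at least 10 reads (18.96%, against 8.54%), 109 by the rank sum test, 204 with a difference of at least 5 points and 0 with at most 1 cytosine per 150 bp, where CG and CHG calls also numbered 0 and 0 and unadjusted p under 0.05 were found in 77 (CHH), 69 (CHG) and 65 (CG) members, which is 7.51%, 6.73% and 6.34% against 1.95%, 5.31% and 6.25% of qualifying windows.

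No paired analysis was possible because neither line had more than 1 library. CHH levels by trinucleotide were not run, since no genome of the build of the files was used. The bands, the dense tiles and the alternatives on the deepest member, equal weights, deep members and dense tiles were chosen after seeing the data. Depth limits what single windows near 10% can show.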

Other observations

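Cytosine contexts that repeated at a fixed spacing, with at least 60% of compared positions alike, were found in 10 members (0.976%) and in 74 low-CHH windows inside blocks (0.126%). The median best match had the other order, with 24.8% in members and 28.5% in low-CHH windows. Of the 10 members, 7 were under 15% CHH, 1 between 15% and 30%, and 2 at 30% or more. The member on chromosome 5 from 13862001 to 13863000 had the highest match, 84.1% at a spacing of 151 bp, and its CHH level was 74.1% in 2X and 74.1% in 4X. Spacings of 25 bp were found in 4 of the 10 members and of 32 bp in 3.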
